A study of Mus musculus with 20 samples.

Results

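Matrix glycoproteins and elastic fibre genes were followed in fibroblasts of mouse embryos (primary cultures of the cells that make connective tissue) that lacked or carried E2F4. The set held 10 listed genes: Fn1, Tnc, Postn, Sparc, Thbs1, Thbs2, Fbn1, Eln, Fbln2 and Fbln5. Members were found by gene symbol, current or former, among the probe sets annotated with 1 symbol. Of the 10 genes, 9 had such a probe set, and together they had 14 of them on the array. Fbn1 had none and was not analysed here. All 9 genes passed the filter on low signal, as did 13 of the 14 probe sets, and the array had 12393 genes with a 1-symbol probe set in all. A further probe set for Thbs1 carried several symbols and was left out.

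The E2F4 null group held 10 cultures from 5 null embryos, 2 from each. The wild type group held 10 cultures from 3 embryos, of which embryos 1 and 2 gave 3 each and embryo 3 gave 4. All were primary fibroblasts from 13.5 dpc (days post coitum), untreated as far as the labels say, with 1 array per culture. The embryo was the replicate, so n was 5 and 3, and the labels give no strain, sex, litter, passage or deleted exon.

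Matrix glycoproteins are secreted by fibroblasts and assembled outside the cell. Fibronectin forms fibrils that cells bind through integrins, and the matricellular proteins (tenascin C, periostin, SPARC and the thrombospondins) modulate adhesion, signalling and collagen handling more than they bear load. Elastic fibres consist of an elastin core on a scaffold of fibrillin microfibrils, and fibulins help to join the parts. E2F4 is a transcription factor best known for repressing cell cycle genes in resting cells together with pocket proteins.

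The promoter windows of 5 members are shown as examples. No window was available for Fn1, Thbs1 and Eln, although the results below turn on Thbs1 and Fn1 as well. The signal of Tnc, Sparc, Fbln2 and Fbln5 differed between E2F4 null embryos, whereas that of Postn did not pass the same test. Each window runs from 250 bases before to 50 bases after a RefSeq gene start (GRCm38.p6), 5′ to 3′ on the gene's strand. Capitals mark the letters TATAAA, the motif of the TATA box, at whatever distance from the start.
Tnc, chr4:64046966-64047265, minus strand: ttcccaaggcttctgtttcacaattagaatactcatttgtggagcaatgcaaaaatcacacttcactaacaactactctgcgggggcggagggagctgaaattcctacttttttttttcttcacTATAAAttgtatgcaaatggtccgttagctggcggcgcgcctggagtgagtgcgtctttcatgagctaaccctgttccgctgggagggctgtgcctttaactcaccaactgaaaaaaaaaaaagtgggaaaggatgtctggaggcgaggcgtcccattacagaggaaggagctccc
Sparc, chr11:55420031-55420330, minus strand: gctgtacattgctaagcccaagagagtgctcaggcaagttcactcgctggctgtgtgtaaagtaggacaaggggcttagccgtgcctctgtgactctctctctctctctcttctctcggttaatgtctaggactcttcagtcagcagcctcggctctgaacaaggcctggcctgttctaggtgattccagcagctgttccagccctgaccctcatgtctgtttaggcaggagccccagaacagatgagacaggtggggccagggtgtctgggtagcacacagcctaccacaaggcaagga
Fbln2, chr6:91212514-91212813, plus strand: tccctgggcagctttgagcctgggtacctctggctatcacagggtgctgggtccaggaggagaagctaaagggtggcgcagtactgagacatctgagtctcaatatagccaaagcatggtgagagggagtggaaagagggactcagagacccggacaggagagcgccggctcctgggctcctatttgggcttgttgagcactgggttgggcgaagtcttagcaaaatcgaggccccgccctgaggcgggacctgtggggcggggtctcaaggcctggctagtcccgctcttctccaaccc
Fbln5, chr12:101819070-101819369, minus strand: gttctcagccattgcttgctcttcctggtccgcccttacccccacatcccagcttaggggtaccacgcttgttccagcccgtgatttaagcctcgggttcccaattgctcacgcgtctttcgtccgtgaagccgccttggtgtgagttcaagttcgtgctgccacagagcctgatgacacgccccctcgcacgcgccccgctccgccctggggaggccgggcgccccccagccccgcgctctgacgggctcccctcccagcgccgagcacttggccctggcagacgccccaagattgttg
Postn, chr3:54360857-54361156, plus strand: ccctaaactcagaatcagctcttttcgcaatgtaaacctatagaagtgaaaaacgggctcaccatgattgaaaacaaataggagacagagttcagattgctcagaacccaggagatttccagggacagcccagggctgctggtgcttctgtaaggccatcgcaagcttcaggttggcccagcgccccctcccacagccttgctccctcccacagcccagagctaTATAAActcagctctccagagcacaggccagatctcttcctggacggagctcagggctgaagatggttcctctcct

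In all, 7 of the 10 members had 10 such windows, those of Fbn1 and Thbs2 among them, and Postn, Tnc and Fbln5 had a pair each. Both strands were searched for 5 motifs, against all 32851 promoter windows of the same length. The E2F motif TTTNNCGC was found in 1 member window, as GCGAGAAA from 54 bases before the start of Fbn1, and in 5.17% of all windows. TATAAA was found in 4 member windows, of Postn, Thbs2 and both overlapping ones of Tnc, and in 13.6% of all. In Postn it lay 26 bases before the start. In Tnc it lay 126 or 205 bases before, depending on the start used. In Thbs2 it lay 126 bases before, on the opposite strand. The AP-1 motif TGANTCA (7.81% of all windows), the TEAD motif GGAATG (14.7%) and the CArG box (1.63%) were found in no member window. The windows printed ranged from 47.3% GC in Tnc to 65.7% in Fbln5, against a median of 52.7% over all windows. These matches describe letters in the window and were not set against binding data.

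The deposited intensities had the same trimmed mean on every array, 500.2, and array medians lay between 135 and 146. Fibroblast markers such as Col1a1, Col1a2 and Vim were high on all 20 arrays, and 10 of 10 passed the filter. The defining endothelial gene Pecam1 (2.35 to 28.2) and the defining epithelial gene Epcam (1.01 to 28.4) stayed under the filter's signal of 80.2 on every array. Other genes of those lists were above it: Flt1 (184 to 454) of the endothelial list and Krt19 (146 to 499) of the epithelial list on every array, and Krt18 (44.6 to 223) on average. In null embryo 4, culture 2, the hybridization controls were 1.75 times those of the median array. In wild type embryo 2, culture 1, the 5′ probe set for 18S rRNA read 4572, the highest of the 20 arrays. Without these 2 arrays, chosen after seeing the data, the counts of members called in the tests below were the same. The hybridization controls were also raised in both cultures of null embryo 1 (1.14 and 1.13) and of null embryo 2 (1.2 and 1.33). On the other arrays they were 0.954 to 1.02 in null embryos 3 to 5 and 0.762 to 1.11 in wild type embryos. The 18S probe set read 96.1 to 769 on the other wild type arrays, against 60.3 to 168 on the E2F4 null arrays. Leaving out the arrays named above does not remove this difference between genotypes, and its part in the results was not tested.

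The targeted gene, E2f4 on chromosome 8, averaged 157, 167, 156, 155 and 196 in E2F4 null embryos 1 to 5, against 209, 212 and 221 in wild type embryos 1 to 3. All null embryos lay below all wild type embryos, with a difference of -0.35 (log2, SE 0.10). This difference did not pass limma's test over all genes (adjusted p = 0.363). Signals of this size were still read in null cells. The sources used here do not place the probes relative to the deletion.

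The comparison of E2F4 null with wild type embryos asked whether loss of E2F4 went with a change in these matrix genes. No member passed the test (limma, Benjamini-Hochberg adjusted p under 0.05), 0 of 9, and 0 had an unadjusted p under 0.05. Over all 7436 genes tested, 1 was called, 0.0134%, and 647 had an unadjusted p under 0.05. The null and wild type embryos overlapped in all 9 members. Null embryos lay all above wild type embryos in 2.95% of all genes and all below in 3.71%. The difference, null minus wild type, was above 0 in 2 members, Eln and Postn, and below 0 in 7. Over all genes 49% were above 0. Genes read in the same embryos are not independent, so such counts, here and in the lists below, carry no test. The members' median was -0.10 (log2), beside 0.00 (-0.00325) over all genes, and it came to -0.20 with null embryo 2 left out and -0.19 with wild type embryo 3 left out. In bulk cultures fewer cells of a type and less RNA per cell cannot be told apart.

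**Figure D1:**
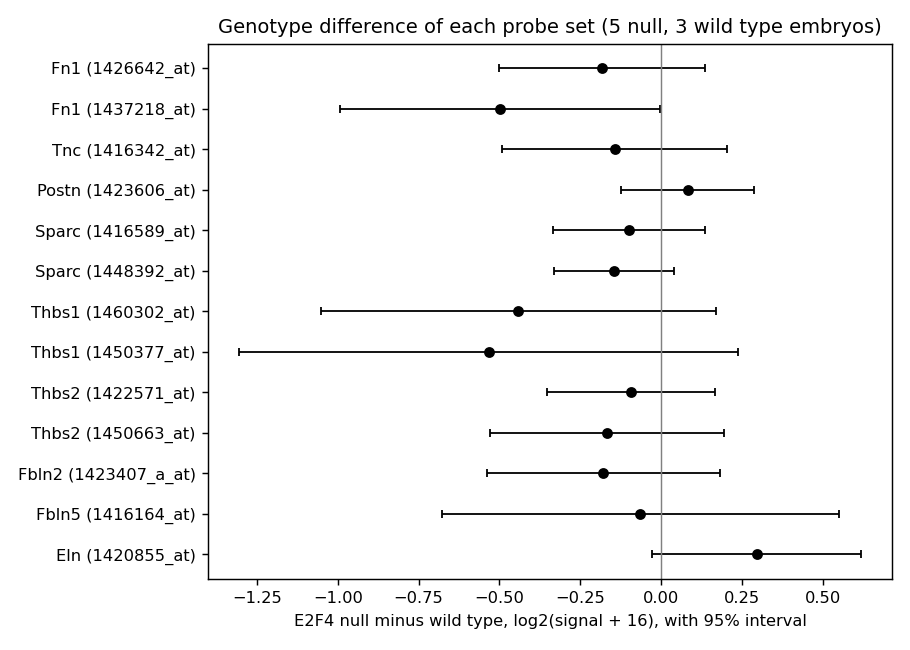
Each point is the E2F4 null minus wild type difference of a member's probe set in log2(signal + 16), with its 95% interval from limma (5 null and 3 wild type embryos). Of the 13 intervals, 12 span 0, and that of Fn1 1437218_at lies just below 0 before adjustment over the probe sets.

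Most members differed between embryos of the same genotype, and so did many genes of the related lists. An F test over cultures (limma) asked whether embryos differed by more than cultures of 1 embryo did. Among E2F4 null embryos, 6 of 9 members passed (66.7%), namely Fn1, Tnc, Sparc, Thbs1, Fbln2 and Fbln5, against 22.9% of all genes. Among wild type embryos 9 of 9 passed, against 50.1% of all genes. With wild type embryo 2 left out the wild type count was 5 of 9, against 15.1% of all genes in that test. With cultures 1 and 2 of each embryo only it was also 5 of 9, against 29.5% of all genes. Both tests were passed by 6 members, against 19.0% of all genes. In the related lists described below, 50% to 75% of genes passed among null embryos and 66.7% to 83.3% among wild type embryos. The labels name no litter, plating or scan, so what separates embryos of 1 genotype cannot be told apart here. The hybridization controls also differed between the arrays of null embryos, and their part was not tested.

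**Figure D2:**
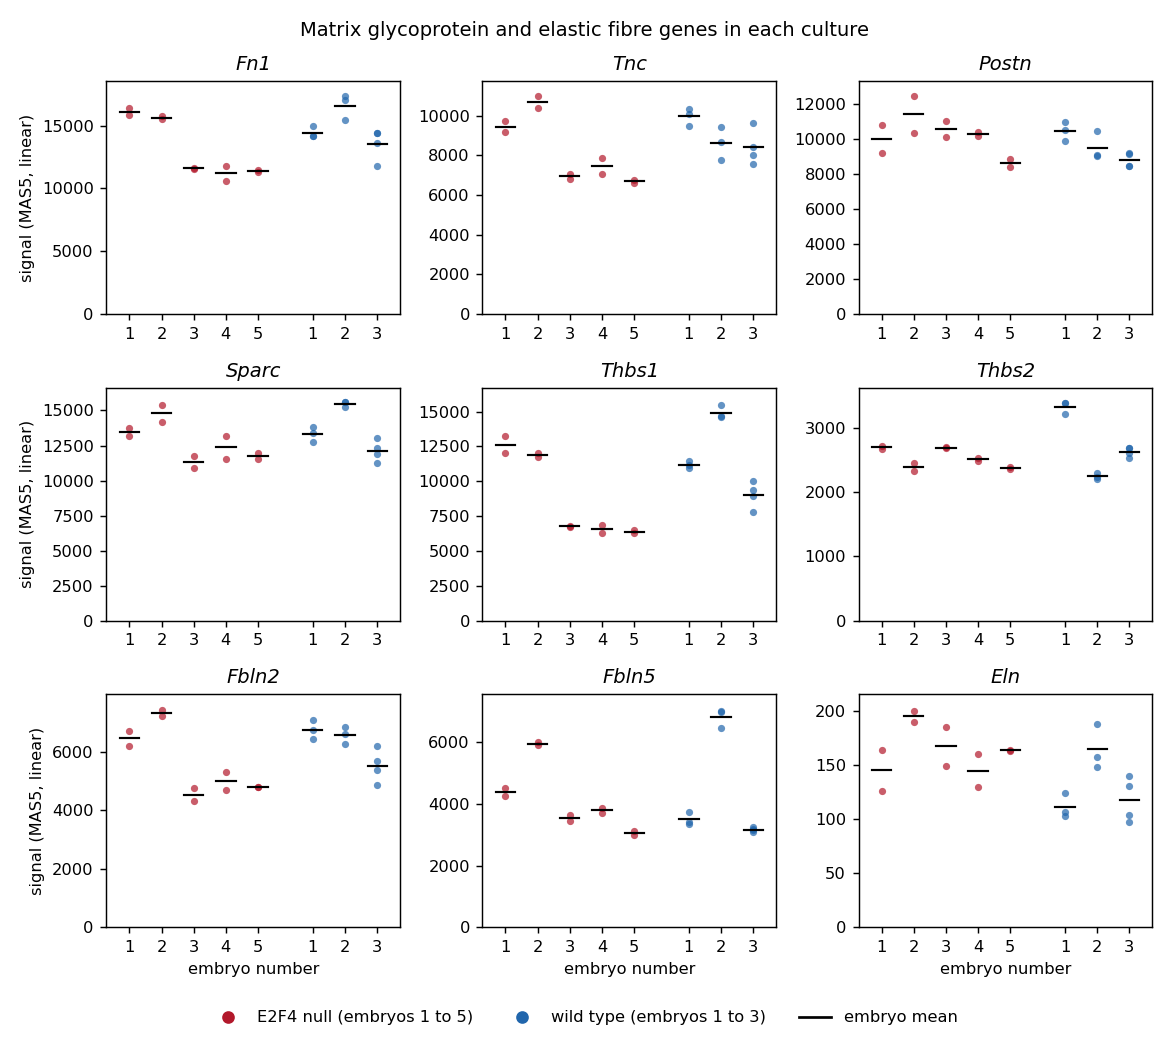
Signal (MAS5, linear scale) of the brightest probe set of each of 9 genes in every culture, with E2F4 null embryos 1 to 5 at the left and wild type embryos 1 to 3 at the right. Points are cultures and black bars embryo means. Null embryos 1 and 2 stand above null embryos 3 to 5 in Fn1, Tnc, Sparc, Thbs1, Fbln2 and Fbln5, and the genotypes overlap in every panel.

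Fn1 on chromosome 1 encodes fibronectin, the fibril-forming ligand of integrins. Its brightest probe set (1426642_at) averaged 16093, 15634, 11587, 11201 and 11413 in E2F4 null embryos 1 to 5, against 14422, 16589.8 and 13532 in wild type embryos 1 to 3. Null embryos 1 and 2 were high and the other null embryos lay below every wild type embryo. The means were 13186 ± 2454 in E2F4 null (SD, n = 5) and 14848 ± 1573 in wild type (SD, n = 3). The difference of -0.18 (log2, SE 0.14, limma adjusted p = 0.747) was smaller than the SD between null embryos, 0.26. Null embryos differed among themselves (limma F test, adjusted p = 0.000121), 1.44 times from lowest to highest, and so did wild type embryos (adjusted p = 0.00681). Without wild type embryo 2 the wild type test gave an adjusted p of 0.396 by limma.

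A second Fn1 probe set, 1437218_at, gave another order. It averaged 1795, 1597, 1209.7, 1206 and 1166 in E2F4 null embryos 1 to 5, against 2416, 1320.2 and 2328 in wild type embryos 1 to 3. The null embryos kept the order of high and low seen with the first probe set, but wild type embryo 2, the highest wild type embryo there, was the lowest here. Its signal as a percentage of the first probe set's was 10.2 to 11.2 in the 5 null embryos, against 16.7, 8.01 and 17.3 in wild type embryos 1 to 3. The null embryos lay close together and between wild type embryo 2 and the other wild type embryos. The genotype difference of this probe set was -0.50 (log2, SE 0.22), with an unadjusted p of 0.0486 and an adjusted p of 0.565 by limma over 12228 probe sets. Which transcripts or regions each probe set reads was not tested.

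**Figure D3:**
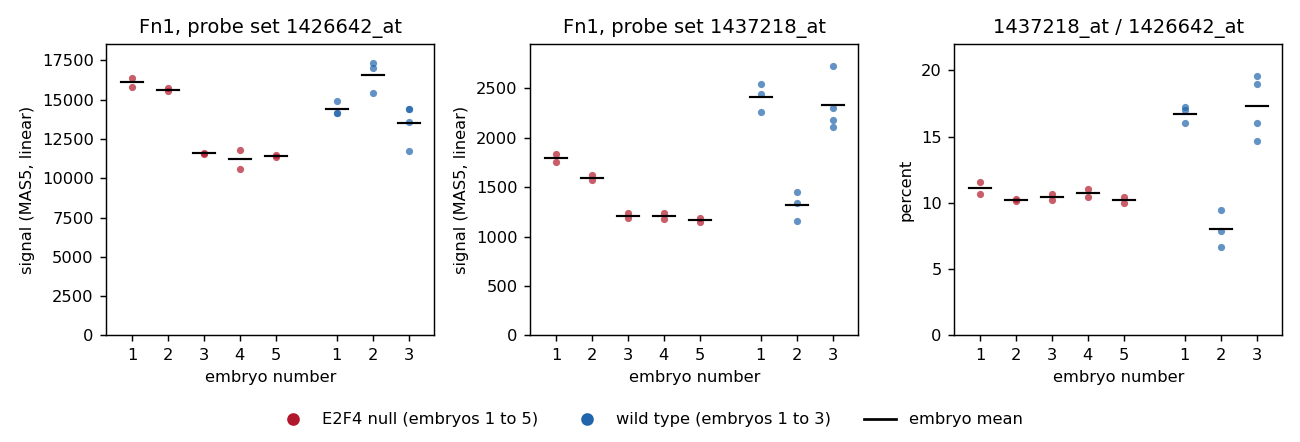
Signal (MAS5, linear scale) of 2 Fn1 probe sets in every culture and, at the right, the second as a percentage of the first, with E2F4 null embryos left of wild type embryos in each panel. Points are cultures and bars embryo means. Wild type embryo 2 is high with the first probe set, low with the second, and has the lowest percentage, 8.01.

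Tnc on chromosome 4 encodes tenascin C, a hexameric glycoprotein that weakens adhesion to fibronectin. The probe set averaged 9447, 10699, 6949.7, 7461 and 6709 in E2F4 null embryos 1 to 5, against 9981, 8633 and 8410.5 in wild type embryos 1 to 3. Again null embryos 1 and 2 were high, null 2 above every wild type embryo, and null 3 to 5 were low. The genotype difference was -0.14 (log2, SE 0.16, limma adjusted p = 0.828). Null embryos differed (limma F test, adjusted p = 5.78e-05). Wild type embryos did so by a smaller margin (adjusted p = 0.0327), which became 0.729 without wild type embryo 1.

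Postn on chromosome 3 encodes periostin, which binds collagen and tenascin C and aids collagen cross-linking. It averaged 10028, 11426, 10603, 10292 and 8653 in E2F4 null embryos 1 to 5, against 10489, 9525 and 8821 in wild type embryos 1 to 3. Null embryo 2 was highest and null embryo 5 lowest of all 8. The genotype difference was 0.08 (log2, SE 0.09, limma adjusted p = 0.834). Null embryos did not pass the F test (limma, adjusted p = 0.0706), although they did without null embryo 1 (adjusted p = 0.0402) and with arrays centred on their medians (0.0349). Wild type embryos passed it (adjusted p = 0.00976), but not without wild type embryo 1 (0.175) or wild type embryo 3 (0.100).

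Sparc on chromosome 11 encodes a collagen-binding protein that acts in collagen processing. Its brightest probe set (1416589_at) averaged 13469, 14788, 11309, 12360.4 and 11734 in E2F4 null embryos 1 to 5, against 13322, 15492 and 12129 in wild type embryos 1 to 3. Null embryo 2 and wild type embryo 2 were the highest of their genotypes. The genotype difference was -0.10 (log2, SE 0.11, limma adjusted p = 0.821). Null embryos differed (limma F test, adjusted p = 0.0177), but not without null embryo 2 (0.196). Wild type embryos also differed (adjusted p = 0.000219), but not without wild type embryo 2 (0.137). With the other Sparc probe set (1448392_at) wild type embryo 1 was highest, and null embryos did not pass (adjusted p = 0.0970).

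Thbs1 on chromosome 2 encodes thrombospondin 1, which inhibits the growth of blood vessels and can activate latent TGF-beta. It had the largest F statistic between null embryos of the 9 members, rank 37 of 7436 genes. The brightest probe set (1460302_at) averaged 12629, 11871, 6761, 6574 and 6388.5 in E2F4 null embryos 1 to 5, against 11189, 14932 and 9017 in wild type embryos 1 to 3. Null embryos formed a high pair and a low group of 3 that lay below every wild type embryo, and the lowest and highest null embryo were 1.98 times apart. The difference between cultures of a null embryo was much smaller: embryo 1 read 12041 and 13216, and embryo 3 read 6739 and 6782.

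Means for Thbs1 were 8844 ± 3123 in E2F4 null (SD, n = 5) and 11713 ± 2992 in wild type (SD, n = 3). The genotype difference, -0.44 (log2, SE 0.27, 95% interval -1.06 to 0.18), was the largest of the 9 members in size and did not pass (limma adjusted p = 0.692). It stayed below 0 in all 24 alternatives, and ranged from -0.62 without wild type embryo 3 to -0.25 without wild type embryo 2 when 1 embryo was left out. Both F tests passed (limma, adjusted p = 6.28e-07 in null and 2.19e-06 in wild type). The other probe set (1450377_at) put the same embryos high, at 9542 and 10997 in null embryos 1 and 2 and 13989 in wild type embryo 2, and its genotype difference was -0.53 (SE 0.34).

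Thbs2 on chromosome 17 encodes thrombospondin 2, a relative that also binds matrix metalloproteinases and affects collagen fibrils. It did not follow Thbs1. Its brightest probe set (1422571_at) averaged 2693, 2391, 2692, 2506 and 2372 in E2F4 null embryos 1 to 5, against 3325, 2246 and 2624 in wild type embryos 1 to 3. The null embryos lay close together, 1.14 times from lowest to highest, and inside the wild type range. Wild type embryo 1 was highest and embryo 2 lowest, the reverse of embryo 2 in Thbs1. The genotype difference was -0.09 (log2, SE 0.12, limma adjusted p = 0.857) and was 0.06 without wild type embryo 1. Null embryos did not pass the F test (limma, adjusted p = 0.0878) and wild type embryos did (1.79e-06). The other probe set (1450663_at) gave the same calls.

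Fbln2 on chromosome 6 encodes fibulin 2, which binds fibronectin, fibrillin and elastin. It averaged 6463.5, 7329, 4538, 5006 and 4791 in E2F4 null embryos 1 to 5, against 6760.4, 6577 and 5536 in wild type embryos 1 to 3. Null embryos 1 and 2 were in or above the wild type range and null 3 to 5 below it. The genotype difference was -0.18 (log2, SE 0.16, limma adjusted p = 0.781). Null embryos differed (limma F test, adjusted p = 9.53e-05), and wild type embryos too (0.00479), but not without wild type embryo 3 (0.597).

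Fbln5 on chromosome 12 encodes fibulin 5, which binds elastin and integrins and is needed for elastic fibre assembly in mice. It averaged 4376, 5953, 3547, 3794 and 3058 in E2F4 null embryos 1 to 5, against 3495, 6808 and 3162 in wild type embryos 1 to 3. Null embryo 2 and wild type embryo 2 stood far above the rest of their genotypes, and the remaining embryos overlapped. The genotype difference was -0.06 (log2, SE 0.27, limma adjusted p = 0.962), and it was 0.28 without wild type embryo 2 and 0.04 without null embryo 5. Null embryos differed by 1.95 times (limma F test, adjusted p = 4.54e-06). Wild type embryos differed by 2.15 times (adjusted p = 1.47e-09), but not without wild type embryo 2 (0.100).

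Eln on chromosome 5 encodes elastin, the core of the elastic fibre. Its brighter probe set (1420855_at) averaged 145, 195, 167, 145 and 164 in E2F4 null embryos 1 to 5, against 111, 165 and 118 in wild type embryos 1 to 3. Wild type embryos 1 and 3 lay below every null embryo, while wild type embryo 2 lay inside the null range. The difference was 0.30 (log2, SE 0.14, 95% interval -0.03 to 0.62, limma adjusted p = 0.613), and it did not pass. With single cultures counted as independent samples the adjusted p was 0.0834, the lowest of the alternatives. Null embryos did not pass the F test (limma, adjusted p = 0.306); wild type embryos did (0.0195), but not without embryo 2 (0.813). The second Eln probe set (1420854_at) read 4.71 to 31.0 over the 20 arrays and was under the filter.

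Taken per probe set, 8 of the 13 member probe sets differed between E2F4 null embryos, against 18.4% of all 12228 probe sets tested (limma F test). Between wild type embryos 13 of 13 did, against 46.5% of all. Probe sets of the same gene agreed on the call in Fn1, Thbs1 and Thbs2, and disagreed in Sparc among null embryos.

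The SD of the embryo means in log2(signal + 16) put numbers on the spread. Among E2F4 null embryos it was largest for Thbs1 (0.49) and Fbln5 (0.36) and smallest for Thbs2 (0.09), with a median over all genes of 0.13 (0.126). Wild type embryos gave 0.60 for Fbln5 and 0.37 for Thbs1, and the smallest was 0.12 (0.125) for Postn, with a median over all genes of 0.15 (0.147). Of the 9 members, 8 lay above the all-gene median among null embryos and 7 among wild type embryos. Between cultures of 1 embryo, 8 of the 9 lay below the all-gene median of 0.117, and Eln (0.177) lay above it.

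**Figure D4:**
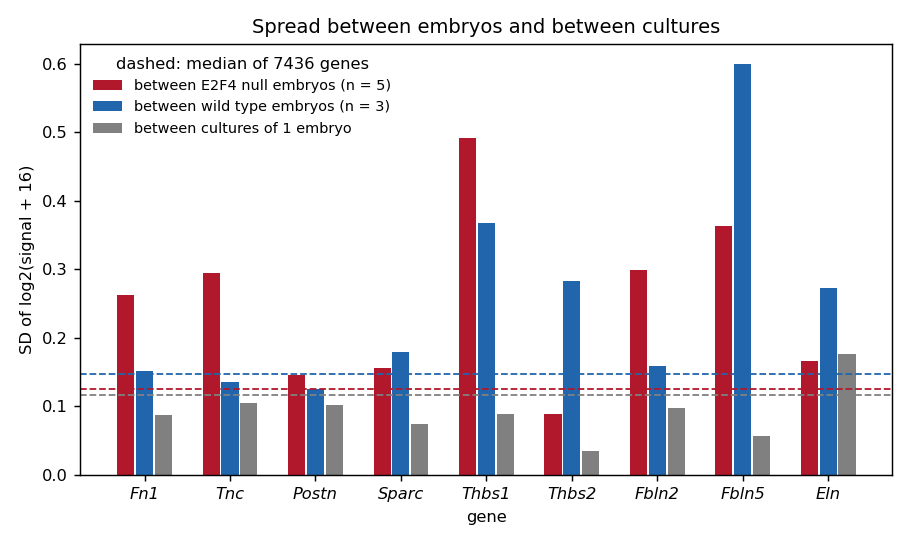
Bars give the SD of log2(signal + 16) between E2F4 null embryos (n = 5), between wild type embryos (n = 3) and between cultures of 1 embryo, for each of 9 genes, and dashed lines give the median of each over 7436 genes. Thbs1 (0.49 in null, 0.37 in wild type) and Fbln5 (0.36 and 0.60) have the tallest bars, and 8 of 9 genes have a culture SD below the median line.

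The same embryos were high in several members. Null embryos 1 and 2 were the highest pair of the 5 null embryos in 6 of 9 members (Fn1, Tnc, Sparc, Thbs1, Fbln2, Fbln5), an order held by 20.7% of all genes. They were the lowest pair in 0 members, against 25.1% of all genes. Wild type embryo 2 was the highest wild type embryo in 5 members (Fn1, Sparc, Thbs1, Eln, Fbln5), against 39.6% of all genes. Wild type embryo 1 was the highest in 4 (Tnc, Postn, Thbs2, Fbln2), against 26.3% of all genes, and wild type embryo 3 in 0, against 34.1%. These orders were noticed in the data and carry no test.

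Several marker lists moved with or against that order. The summed signal of 6 smooth muscle markers was 37587, 40714, 29397, 31103 and 27341 in E2F4 null embryos 1 to 5, against 30081, 43919 and 28144 in wild type embryos 1 to 3. It was highest in null embryos 1 and 2 and wild type embryo 2, and 5 of the 6 genes passed the filter (Acta2 at 15527 or more on every array, Myh11 under the filter). The summed signal of 8 proliferation markers ran the other way, at 14902, 15249, 17714, 18939 and 19094 in null embryos 1 to 5, against 16369, 11530 and 19235 in wild type embryos 1 to 3. Macrophage markers (7 of 9 past the filter) summed to 1355 to 4495 in null and 1679 to 2601 in wild type embryos, highest in null embryo 4. They did not follow the order. Endothelial markers (1 of 6 past the filter) summed to 541, 469, 304, 319 and 288 in null embryos 1 to 5, against 494, 543 and 313 in wild type embryos 1 to 3. Epithelial markers (2 of 5 past the filter) summed to 737, 634, 400, 460 and 480 in null embryos 1 to 5, against 315, 554 and 313 in wild type embryos 1 to 3. Within the null embryos both sums were highest in embryos 1 and 2, and within the wild type embryos in embryo 2. Wild type embryo 1 was above null embryo 2 in the endothelial sum (494 against 469) but low in the epithelial sum (315). Fibroblast markers (10 of 10 past the filter) summed to 86871, 91946, 85207, 91427 and 83540 in null embryos 1 to 5. In wild type embryos 1 to 3 they summed to 90199, 90609 and 92255. By this sum null embryo 2 was the highest null embryo and null embryo 5 the lowest. The mean log2 deviations of this list were -0.27 and -0.07 in null embryos 1 and 2 and 0.06 to 0.14 in null embryos 3 to 5. Wild type embryos 1 to 3 had mean deviations of 0.13, -0.25 and 0.17. Their part in the members' spread was not tested for any of these lists.

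**Figure D5:**
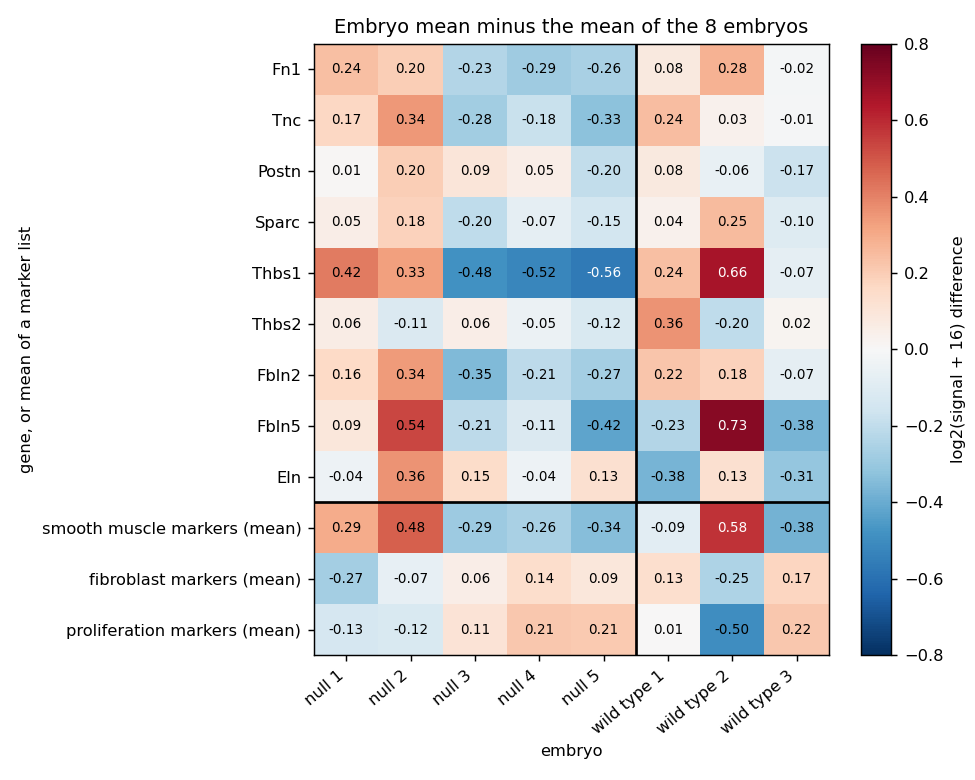
Each cell is an embryo's mean minus the mean of the 8 embryos in log2(signal + 16), for the 9 genes and for the mean of 3 marker lists, with E2F4 null embryos left of wild type embryos. Red is above and blue below that mean. Thbs1 and the smooth muscle markers are above it in null embryos 1 and 2 and wild type embryo 2 and below it in null embryos 3 to 5, whereas the proliferation markers have the opposite sign in these embryos.

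Other genes of elastic fibre assembly were measured for 15 of 18 listed, and 0 of 15 passed the genotype test. Of their differences 3 were above 0 and 12 below, beside 49% of all genes above 0. The list's median was -0.08 (log2). The smallest p-values belonged to Emilin1, an elastin microfibril interface protein, and Ltbp1, a latent TGF-beta binding protein of microfibrils. Emilin1 averaged 487 ± 33.2 in E2F4 null (SD, n = 5) and 616 ± 66.2 in wild type (SD, n = 3; difference -0.33, limma adjusted p = 0.360). The other Emilin1 probe set (1431834_a_at) overlapped between genotypes, at 150 to 209 in null and 167 to 239 in wild type embryos. Its difference was -0.19 (limma, unadjusted p = 0.216). Ltbp1 averaged 1322 ± 179 and 1799 ± 249 in the same groups (-0.44, limma adjusted p = 0.360). Null embryos differed in 8 of 15, against 22.9% of all genes, and wild type embryos in 10 of 15, against 50.1%.

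Lox, the lysyl oxidase that cross-links elastin and collagen, was high in the same embryos as Thbs1. It averaged 11073.5, 11928, 7839, 7856 and 8121 in E2F4 null embryos 1 to 5, against 9875, 12325 and 8955 in wild type embryos 1 to 3 (limma F tests, adjusted p = 2.29e-05 in null and 2.02e-05 in wild type). Fbn2, the fibrillin of developing tissue, had the opposite order. It averaged 495, 521, 749, 802 and 946 in null embryos 1 to 5, against 1003, 303 and 1217 in wild type embryos 1 to 3 (adjusted p = 0.000103 in null and 3.68e-09 in wild type).

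Among other matrix glycoproteins, 15 of 25 listed were tested and 0 passed between genotypes, with 5 above 0 and 10 below (median -0.02). Ecm1, an extracellular matrix protein, came nearest. It averaged 1027, 1222, 1191, 1268 and 1244 in E2F4 null embryos 1 to 5, against 1649.7, 1545 and 1668 in wild type embryos 1 to 3. All null embryos lay below all wild type embryos (difference -0.44, SE 0.08, limma adjusted p = 0.192). Null embryos differed in 9 of 15, against 22.9% of all genes, and wild type embryos in 12 of 15, against 50.1%. Igfbp7, a secreted insulin-like growth factor binding protein, was high in null embryos 1 and 2 (7385 and 7940.2) and wild type embryo 2 (8834) and at 3839.5 to 4784 in null embryos 3 to 5. Lama4, a laminin chain, had the opposite order and the smallest F test p between null embryos in this list (limma, adjusted p = 5.15e-07). It averaged 291, 525, 871, 986 and 985 in null embryos 1 to 5, against 934, 436 and 924 in wild type embryos 1 to 3. Tgfbi, a TGF-beta-induced adhesion protein, was lowest in null embryo 1 and wild type embryo 2, at 857, 1822, 1091, 1360.4 and 1251 in null embryos 1 to 5, against 1709, 884 and 1612 in wild type embryos 1 to 3.

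Matrix receptors were tested for 12 of 21 listed, with 4 above 0, 8 below and 0 called (median -0.07). Itga5, whose product pairs with integrin beta 1 as a fibronectin receptor, averaged 1299, 1470.4, 841, 805 and 668 in E2F4 null embryos 1 to 5, against 1418, 1467 and 994 in wild type embryos 1 to 3. Its partner Itgb1 was likewise highest in null embryos 1 and 2 (5331 and 5005) and wild type embryo 2 (6332). The probe sets of Sdc4, a heparan sulphate co-receptor for fibronectin, disagreed. The brightest (1448793_a_at) ran against the integrins and averaged 484, 418, 3087, 2989.6 and 3370.4 in null embryos 1 to 5, against 3153, 508 and 4455 in wild type embryos 1 to 3 (limma F tests, adjusted p = 1.96e-10 in null and 1.96e-13 in wild type). The other (1417654_at) averaged 156, 163, 154, 121 and 137 in null embryos 1 to 5, against 224, 268 and 235 in wild type embryos 1 to 3. It passed neither F test (limma, adjusted p = 0.608 in null and 0.493 in wild type). With it all null embryos lay below all wild type embryos, a difference of -0.66 (log2, SE 0.12) with an unadjusted p of 0.000266 and an adjusted p of 0.221 by limma over the 12228 probe sets. Null embryos differed in 9 of 12 of these genes, against 22.9% of all genes, and wild type embryos in 10 of 12, against 50.1%.

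The TGF-beta list, whose ligands induce many matrix genes in fibroblasts, had 14 of 16 tested, with 2 above 0, 12 below and 0 called (median -0.16). Tgfb2, a ligand, averaged 606, 582, 309, 267 and 268 in E2F4 null embryos 1 to 5, against 604, 688 and 354 in wild type embryos 1 to 3. Null embryos 1 and 2 again lay with wild type embryos 1 and 2 (difference -0.45, SE 0.33, limma adjusted p = 0.730). Tgfb3, another ligand, averaged 1708 ± 357 in E2F4 null (SD, n = 5) and 2238 ± 428 in wild type (SD, n = 3; limma adjusted p = 0.595). Ski, a repressor of SMAD signalling, was instead lowest in null embryos 1 and 2 (581 and 647, with 736 to 788 in null embryos 3 to 5) and in wild type embryo 2 (606). Null embryos differed in 7 of 14, against 22.9% of all genes, and wild type embryos in 11 of 14, against 50.1%.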

How the data were processed

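Expression was measured in 20 mouse fibroblast cultures, 1 array each. Per the submitters' processing notes the authors used MAS5, and the deposited table holds linear intensities. The sources used here give no MAS5 version, scaling target or detection calls. MAS5 levels are not comparable between probe sets. Of 22690 probe sets, 64 were controls and 20380 had 1 gene symbol in the platform annotation (691 had several, 1555 were unlisted); 20351 matched the RefSeq gene table of GRCm38.p6 by gene ID. The files name no genome build, so genes have chromosomes only and promoter windows RefSeq coordinates.

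Intensities were converted to log2(signal + 16), averaged per embryo, with the brightest probe set per gene and genes under the 40th percentile dropped (7436 of 12393 kept). Fold changes on this scale understate low genes. The genotype test used limma 3.58.1 under R 4.3.3 (lmFit, eBayes with trend, two-sided, Benjamini-Hochberg). F tests over cultures compared embryos within a genotype. Titles hold a pair of numbers, read as embryo and culture from the submitters' design. Cultures of 1 embryo are not independent animals. The number of arrays limits precision. The method was tested on simulated data in which the embryo effect of each gene was drawn independently. Genes read in the same embryos are not independent, so that test does not cover embryo effects shared between genes. Alternatives covered the pseudocount, filter, scaling, probe set choice, blocks and left-out embryos. The named genes were E2f4 and all members. For each related list, some of the genes with the smallest p in the genotype or F tests were described. Of that selection Ltbp2, Efemp1, Mfap4, Smoc2, Mgp, Itgb5, Ddr2, Smad7, Skil and Tgfb1 were left out of the text above. Some of them, such as Ltbp2 and Efemp1, did not keep the order of embryos seen in Thbs1. Members and lists were chosen with earlier results of these data known.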

Additional observations from a re-analysis of the deposited data

How the results depend on the processing

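Between genotypes 0 of 9 members were called in the main test and in every alternative run, including scaling by quantiles or medians, and their median difference stayed below 0, from -0.204 to -0.0723 when 1 embryo was left out. Embryos of the same number in both genotypes did not all deviate together (r = 0.0644, 0.633 and 0.447 across genes, which are not independent replicates). Pairs of different numbers had r from -0.624 to 0.631, so a high r was not particular to embryos of the same number. With the embryo number as a replicate block, which drops null embryos 4 and 5, the median was -0.048 and 0 members were called; with the culture number as a block it was -0.0829. Fbln5 changed sign with that replicate block (0.0989), without wild type embryo 2 (0.28) and without null embryo 5 (0.0358), and Thbs2 without wild type embryo 1 (0.0577). With 1 embryo left out, Fbln5 ranged from -0.271 to 0.28 and Thbs2 from -0.224 to 0.0577. Differences between E2F4 null embryos were called in 5 to 7 members in all alternatives, where 11.2% (no filter) to 26.5% (60th percentile filter) of all genes were called. Differences between wild type embryos were called in 9 members (50.1% of all genes) and in 5 with cultures 1 and 2 of each embryo only (29.5%). With 1 wild type embryo left out the members called were 5 to 7: 7 without embryo 1 (45.6% of all genes), 5 without embryo 2 (15.1%) and 7 without embryo 3 (37.3%). Fewer samples entered these tests. Postn gained a call between null embryos with median centring (0.0349) and without null embryo 1 (0.0402). Sparc lost its call between null embryos with no filter on low signal (0.053) and without trend (0.0737), and Tnc its call between wild type embryos with no filter (0.0643), median centring (0.054) and without trend (0.0851). The cause was not tested. Few embryos and signals near the filter, as for Eln, limit what could be detected.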
